A study of Mus musculus with 12 samples.

Results

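The genes of the proteasome subunits were followed through mouse skeletal muscle with and without Stat5a and Stat5b and with and without growth hormone (GH). The set holds every gene whose symbol is Psma, Psmb, Psmc, Psmd, Psme or Psmf followed by a number, which gave 43 of the 18193 genes that had a probe set of 1 symbol on the Affymetrix array. These genes had 92 probe sets, and each gene was read from its brightest probe set by mean signal. They comprise 15 genes of the core particle, 3 immunoproteasome genes (Psmb8, Psmb9 and Psmb10), 1 thymoproteasome gene (Psmb11), 17 genes of the regulatory particle, 3 assembly chaperones, 3 activators and 1 inhibitor. The filter on low signals kept 41 of the 43 for testing. The 2 left out were Psma8, at signals of 4.94 to 44.5 over the 12 arrays, and Psmb11, at 2.5 to 69.0. The activator gene Psme2 was not analysed, because its 1 probe set carries a second symbol.

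Total RNA of 12 mice was hybridised, 3 mice in each of 4 groups. By the labels, KO+GH mice lacked Stat5a and Stat5b and received GH, and WT+GH mice kept both genes and received GH. KO mice lacked both genes and received no GH, and WT mice kept both genes and received none. The labels place the deletion in blood cells, whereas the series title is about skeletal muscle, and they give no Cre driver, strain, sex, age, GH dose or duration. Each title holds an animal number of its own, so arrays were taken as separate animals, and p-values measure the spread between these samples only.

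Fast fibre RNAs, which mark skeletal muscle, were bright on every array, with summed signals of the 10 markers of 404500 to 643000. Stat5b had a signal of 333, 378 and 374 in KO+GH muscle, against 1694, 1792 and 1896 in WT+GH muscle, and of 498, 372 and 415 in KO muscle, against 2955, 2640 and 2866 in WT muscle. The labels of genotype and the RNA of Stat5b therefore went the same way on all 12 arrays. The arrays with GH differed from those without in more than muscle RNA. The spiked poly-A control transcripts had a geometric mean signal of 487 to 533 on the 6 arrays with GH and 151 to 173 on the 6 without. Arrays with GH had a median signal of 97.4 to 102, against 79.3 to 92.4 on the others. The ratio of the 3′ to the 5′ actin probe set, a measure of RNA quality, was 0.962 to 1.01 in KO+GH, 0.887 to 0.932 in WT+GH, 0.812 to 0.864 in KO and 0.805 to 0.855 in WT muscle, with no overlap between arrays with and without GH and the highest values in KO+GH, the group with the most members called lower. The same ratio for Gapdh was 0.795 to 0.83 in KO+GH, 0.842 to 0.86 in WT+GH, 0.834 to 0.859 in KO and 0.835 to 0.877 in WT muscle. The animal numbers in the titles also form separate series, with the prefix M only on arrays with GH. The poly-A, median signal and actin differences ran with GH on all 12 arrays, so the design cannot tell them apart from GH. The part of all these differences in the GH values below was not tested. In bulk muscle, fewer cells of a type and less RNA per cell cannot be told apart.

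The proteasome is the cell's main machine for breaking down ubiquitin-tagged proteins. Its core is a barrel whose outer rings are built of alpha subunits, which form the gate, and whose inner rings are built of beta subunits, some of which cut the chain. A regulatory particle at the end of the barrel holds ATPases that unfold the substrate and push it in, with non-ATPase subunits that bind ubiquitin and remove it. In cells exposed to interferon, and constitutively in immune cells, Psmb9, Psmb10 and Psmb8 replace the cutting subunits Psmb6, Psmb7 and Psmb5 to form the immunoproteasome, known for making peptides for display on MHC class I. In muscle, the ubiquitin and proteasome system breaks down contractile proteins during wasting, and GH is an anabolic hormone that signals through JAK2 to STAT5.

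The upstream bases of 4 genes are shown, because the 3 immunoproteasome genes had the largest GH differences among the members in KO muscle and Psmc5 was the only member tested whose GH response passed the test of a difference between genotypes. Each run is the 250 bases before the start of the gene in RefSeq on GRCm38.p6, 5′ to 3′ along the gene. Capitals mark the motif TTCNNNGAA, the palindrome that STAT proteins bind.
Psmb9 (chr17:34187331-34187580, minus strand): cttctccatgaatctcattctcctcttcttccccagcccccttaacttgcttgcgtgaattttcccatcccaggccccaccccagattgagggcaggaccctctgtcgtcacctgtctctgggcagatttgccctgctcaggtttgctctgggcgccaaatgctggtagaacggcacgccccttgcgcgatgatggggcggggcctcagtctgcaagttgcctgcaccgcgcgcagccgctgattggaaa
Psmb10 (chr8:105938393-105938642, minus strand): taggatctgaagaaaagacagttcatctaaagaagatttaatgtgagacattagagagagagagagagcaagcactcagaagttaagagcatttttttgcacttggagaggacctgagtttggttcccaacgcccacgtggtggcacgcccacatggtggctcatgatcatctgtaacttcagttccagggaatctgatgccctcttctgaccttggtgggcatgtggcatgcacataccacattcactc
Psmb8 (chr17:34197945-34198194, plus strand): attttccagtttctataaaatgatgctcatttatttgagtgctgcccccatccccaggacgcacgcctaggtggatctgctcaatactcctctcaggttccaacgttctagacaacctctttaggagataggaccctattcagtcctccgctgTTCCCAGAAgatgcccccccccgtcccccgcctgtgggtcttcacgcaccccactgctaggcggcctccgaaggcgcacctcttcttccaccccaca
Psmc5 (chr11:106255935-106256184, plus strand): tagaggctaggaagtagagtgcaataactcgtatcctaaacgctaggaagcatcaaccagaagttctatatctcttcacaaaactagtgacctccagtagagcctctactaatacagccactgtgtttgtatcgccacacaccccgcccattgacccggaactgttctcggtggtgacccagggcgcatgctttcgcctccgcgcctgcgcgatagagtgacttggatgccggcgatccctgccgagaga

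The STAT motif stood in 1 of the 36 member promoters that had a RefSeq entry, that of Psmb8, as TTCCCAGAA at 97 to 89 bases before the start. It stood in 7.18% of the 27025 promoters of the same length. TGACNNNGC, the letters of the antioxidant element that NRF1 and NRF2 bind, was found on either strand in 5 of the 36, in Psmb5, Psmb6, Psmc6, Psmd9 and Psmd12, and in 10.15% of all. Of the 4 sequences printed above, those of Psmb9, Psmb10 and Psmc5 held neither TTCNNNGAA nor TGACNNNGC.

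GH went with lower RNA of many proteasome subunits in KO muscle. Of the 41 members tested, 2 rose and 16 fell in KO+GH muscle relative to KO muscle, which is 39.0% fallen, against backgrounds of 8.93% risen, 15.4% fallen and 24.3% in either direction over all 12654 genes tested (limma, Benjamini-Hochberg adjusted p under 0.05). In WT+GH relative to WT muscle 1 rose and 5 fell, beside backgrounds of 7.33%, 11.8% and 19.1% in either direction, so that the share of fallen members was near that of all genes. The median log2 fold change of the members was -0.15 in KO and -0.12 in WT muscle, against -0.06 over all genes in both genotypes. With quantile normalization members and all genes were closer, at -0.121 against -0.0921 in KO and -0.0887 against -0.0763 in WT muscle. The share of members with a lower mean was 78.0% in KO and 75.6% in WT muscle, against 57.7% and 57.2% of all genes. On the chosen probe sets the differences were small, the largest of a member in a 2-group comparison being 0.82 in size on the log2 scale. Other probe sets of some members differed more, the second of Psmb4 by 1.295 with GH in KO muscle.

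Counts of GH calls rested on the scaling. When each array was centred on its median, the median of all genes was -0.24 in both genotypes, and 0 members rose and 26 fell in KO and 0 rose and 25 fell in WT muscle by limma, beside 4173 fallen and 643 risen genes in KO and 3939 and 490 in WT. Under the deposited scaling the genes were 1948 fallen and 1130 risen in KO and 1489 and 927 in WT. The number of members that fell in KO was 10 without KO+GH array 2 (24.4%, all genes 10.3%), and between 11 and 18 without any other array. The number that fell in WT was 1 without WT+GH array 3 (2.44%, all genes 7.81%) or WT array 3 (2.44%, all genes 8.6%). It was 8 without WT array 1 (19.5%, all genes 11.5%). It was 2 without KO+GH arrays 1, 2 or 3, WT+GH arrays 1 or 2 or WT array 2 (4.88%, all genes 8.5% to 10.5%). It was 3 without KO array 2 (7.32%, all genes 11.3%), and 4 to 6 without KO array 1 or 3. Array groups did not overlap, with GH below none, for 22 of the 41 members in KO (53.7%, background 27.9%) and 13 in WT muscle (31.7%, background 21.0%).

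Genotype moved few members, 2 without and 3 with GH. In KO relative to WT muscle 1 member rose and 1 fell (4.88% in either direction), beside backgrounds of 0.774%, 0.68% and 1.45% in either direction. In KO+GH relative to WT+GH muscle 1 rose and 2 fell (7.32% in either direction), beside 2.42%, 2.11% and 4.53% in either direction. Groups did not overlap for 7 members higher and 4 lower in KO muscle (17.1% and 9.76%, backgrounds 6.2% and 7.03%). In KO+GH muscle they did not overlap for 4 higher and 10 lower (9.76% and 24.4%, backgrounds 13.8% and 16.3%). The interaction of genotype and GH, which asks whether the GH difference differs between the genotypes, was positive and passed for 1 member, Psmc5, beside 0.624% of all genes in that direction and 0.933% in either. In all, 21 members passed in at least 1 of the 5 comparisons and 20 in none. The comparisons share arrays, each group of 3 standing in 2 of the 4 simple ones.

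**Figure D1:**
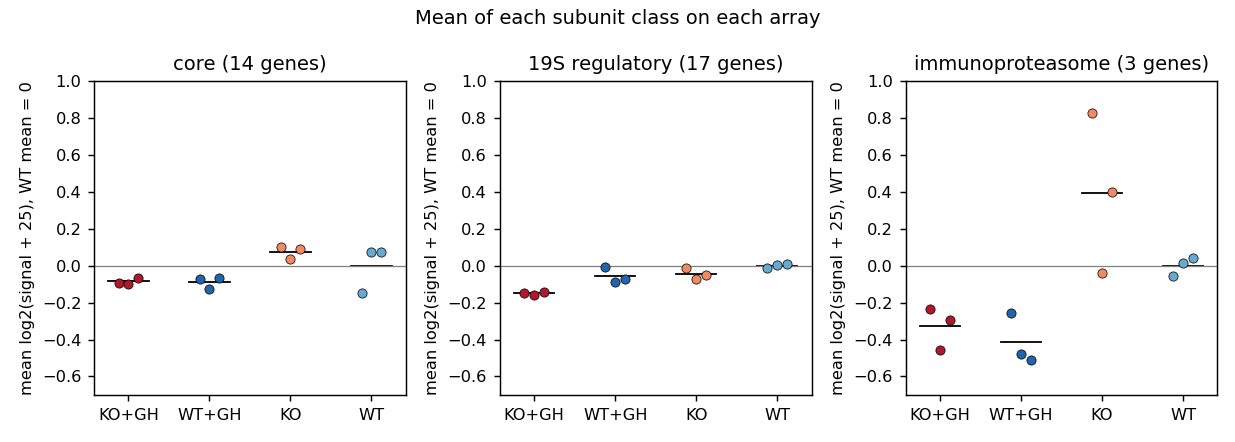
Mean log2(signal + 25) of the 14 tested core, 17 regulatory and 3 immunoproteasome genes on each array, shifted so that the WT mean is 0. Points are arrays and lines are group means. The immunoproteasome mean was -0.33 in KO+GH, -0.41 in WT+GH and 0.39 in KO muscle, and the KO arrays spread from -0.04 to 0.82.

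Among the 7 alpha ring genes tested, 2 fell with GH in KO muscle (28.6%, background 15.4%), Psma2 and Psma4, and 5 did not pass. Psma2, an alpha ring subunit, had signals of 4825, 5315 and 4939 in KO+GH muscle, 5309.6, 5059 and 5329 in WT+GH muscle, 6096, 6151 and 6682 in KO muscle, and 5311, 6215 and 5951 in WT muscle. The KO+GH arrays were all below the KO arrays, while WT+GH and WT arrays overlapped, and the log2 fold change was -0.33 ± 0.0773 in KO (adjusted p = 0.00673) and -0.15 ± 0.0773 in WT muscle (adjusted p = 0.19). Psma4 had signals of 5047, 4879 and 5144 in KO+GH muscle, 5749.9, 5681 and 5453 in WT+GH muscle, 6149, 5747 and 6507 in KO muscle, and 5559, 6359 and 6491 in WT muscle. Its 3 KO+GH arrays were below all other arrays, with -0.29 ± 0.0771 in KO (adjusted p = 0.0144) and -0.12 ± 0.0771 in WT muscle (adjusted p = 0.302). This call was lost without KO+GH array 2 (adjusted p = 0.0642). Psma6, the alpha ring gene with the smallest GH difference in WT muscle, had signals of 11609, 11272 and 11442 in KO+GH muscle, 11797, 10713 and 11497 in WT+GH muscle, 11413, 10649 and 11474 in KO muscle, and 10160, 11398 and 12020 in WT muscle, with all groups overlapping. The log2 fold changes of the ring ran between -0.33 and 0.04 in KO and between -0.15 and 0.06 in WT muscle, with medians of -0.02 and -0.12. No alpha ring gene passed by genotype in limma, and 0 of 7 reached an unadjusted p under 0.05 with or without GH.

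Among the 7 constitutive beta ring genes, 4 fell with GH in KO muscle (Psmb2, Psmb5, Psmb6 and Psmb7) and 2 of these, Psmb2 and Psmb6, also in WT muscle. That is 57.1% in KO and 28.6% in WT muscle, beside 15.4% and 11.8% of all genes. Psmb2, a structural subunit of the ring, had signals of 4729, 4798 and 4801 in KO+GH muscle, 5257, 5092 and 4865 in WT+GH muscle, 6826, 6878 and 6839 in KO muscle, and 5395, 5954 and 6816 in WT muscle. Arrays with GH were below those without in both genotypes, and the 3 KO arrays lay close together. Psmb2 fell by 1.43-fold in KO (-0.52 ± 0.0806 on the log2 scale, adjusted p = 0.000336) and by 1.19-fold in WT muscle (-0.25 ± 0.0806, adjusted p = 0.0425). The WT call was lost without any 1 of KO+GH arrays 1, 2 and 3, WT+GH arrays 1, 2 and 3, KO array 2 or WT arrays 2 and 3 (adjusted p = 0.0545 to 0.183), with quantile normalization (adjusted p = 0.0567), with no filter on low values (adjusted p = 0.0604) and with only these 2 groups fitted (adjusted p = 0.127). The interaction was -0.27 ± 0.114 and did not pass (adjusted p = 0.423).

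Psmb6 carries the caspase-like cutting site and had signals of 6898, 6865 and 7047 in KO+GH muscle, 6696, 6564 and 6756 in WT+GH muscle, 8437, 8146 and 8899.9 in KO muscle, and 7322, 7762 and 7972 in WT muscle. Arrays with and without GH did not overlap in either genotype. The log2 fold change was -0.29 ± 0.0667 in KO (adjusted p = 0.00556) and -0.20 ± 0.0667 in WT muscle (adjusted p = 0.0459), the WT call being lost without any 1 of KO+GH arrays 1, 2 and 3, WT+GH arrays 1, 2 and 3, KO arrays 1 and 2 or WT arrays 2 and 3 (adjusted p = 0.0534 to 0.139), with quantile normalization (adjusted p = 0.0503), with no filter on low values (adjusted p = 0.067) and with only these 2 groups fitted (adjusted p = 0.142). Psmb7, with the trypsin-like site, had signals of 18813, 19304 and 20012 in KO+GH muscle, 22630, 19135 and 20509 in WT+GH muscle, 23570, 23971 and 27262 in KO muscle, and 20904, 24120 and 25749 in WT muscle. Only in KO were the groups apart, and the log2 fold change was -0.36 ± 0.0926 in KO (adjusted p = 0.0109) and -0.18 ± 0.0926 in WT muscle (adjusted p = 0.188), with no test of the difference past the threshold (interaction -0.18 ± 0.131, adjusted p = 0.695).

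Psmb5, which holds the chymotrypsin-like site, had signals of 8673, 8323 and 8855 in KO+GH muscle, 9251, 8214 and 8533 in WT+GH muscle, 10125, 9923 and 10328 in KO muscle, and 8809, 9735 and 9526 in WT muscle. The KO+GH arrays lay below the KO arrays and the WT pair of groups overlapped. The log2 fold change was -0.23 ± 0.0717 in KO (adjusted p = 0.0283) and -0.11 ± 0.0717 in WT muscle (adjusted p = 0.311). The KO call was lost without any 1 of KO+GH arrays 1, 2 and 3 or KO arrays 1, 2 and 3 (adjusted p = 0.0524 to 0.114). Psmb4, the ring gene that differed least with GH in WT muscle, had signals of 8697, 8717 and 8999 in KO+GH muscle, 8816, 8243 and 8933 in WT+GH muscle, 9532, 9099.5 and 10415 in KO muscle, and 8304, 8910.1 and 8674 in WT muscle. Its KO+GH arrays were below its KO arrays, yet the log2 fold change of -0.13 ± 0.0721 did not pass (adjusted p = 0.193). Its second probe set, dimmer at a mean signal of 3995, went the other way in KO muscle, at 1.295 ± 0.3725.

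The 3 immunoproteasome genes had the most negative GH values of all members in KO muscle, and all 3 passed, with 1 of 3 passing in WT muscle. Their median log2 fold change was -0.68 in KO and -0.38 in WT muscle, and the background shares of fallen genes were 15.4% and 11.8%. Psmb9, which takes the place of Psmb6, had signals of 346, 291 and 304 in KO+GH muscle, 286, 233 and 279 in WT+GH muscle, 825, 429.8 and 527 in KO muscle, and 371, 338 and 323 in WT muscle. The KO arrays were the highest, array 1 far above the others, and no KO+GH or WT+GH array reached a KO array. Psmb9 fell by 1.77-fold in KO muscle (-0.82 ± 0.182, 95% interval -1.21 to -0.43, adjusted p = 0.00441). In WT muscle the value was -0.34 ± 0.182 (adjusted p = 0.208), although the 3 WT+GH arrays were below the 3 WT arrays. Without KO array 1 the KO value was -0.57 (adjusted p = 0.0151).

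Psmb10, which takes the place of Psmb7, had signals of 695, 529.5 and 836 in KO+GH muscle, 815, 692 and 557 in WT+GH muscle, 1257, 911 and 1150.3 in KO muscle, and 962, 988 and 1013 in WT muscle. All arrays with GH lay below all arrays without. It fell by 1.6-fold in KO (-0.68 ± 0.163, adjusted p = 0.00746) and by 1.44-fold in WT muscle (-0.52 ± 0.163, adjusted p = 0.0365). The WT call was lost without any 1 of WT+GH arrays 2 and 3 or WT arrays 1, 2 and 3 (adjusted p = 0.06 to 0.16). Psmb8, which takes the place of Psmb5, had signals of 456, 439 and 377 in KO+GH muscle, 445, 392 and 385 in WT+GH muscle, 1043, 429 and 712 in KO muscle, and 454, 561 and 605 in WT muscle. KO array 2 was as low as the KO+GH arrays, so these groups overlapped. The log2 fold change was -0.66 ± 0.223 in KO (adjusted p = 0.0418) and -0.38 ± 0.223 in WT muscle (adjusted p = 0.261), and the KO call was lost without any 1 of KO+GH arrays 1, 2 and 3, WT+GH arrays 1, 2 and 3 or KO arrays 1 and 3 (adjusted p = 0.0503 to 0.178). It was also lost with no filter on low values (adjusted p = 0.0513), with the mean of all probe sets (-0.40, adjusted p = 0.236), with array weights (adjusted p = 0.0828) and with only these 2 groups fitted (adjusted p = 0.0864). Without KO array 1 the value was -0.37 on the log2 scale. The second probe set of Psmb8, which enters the mean of all probe sets, was dim, at a mean signal of 18.4.

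**Figure D2:**
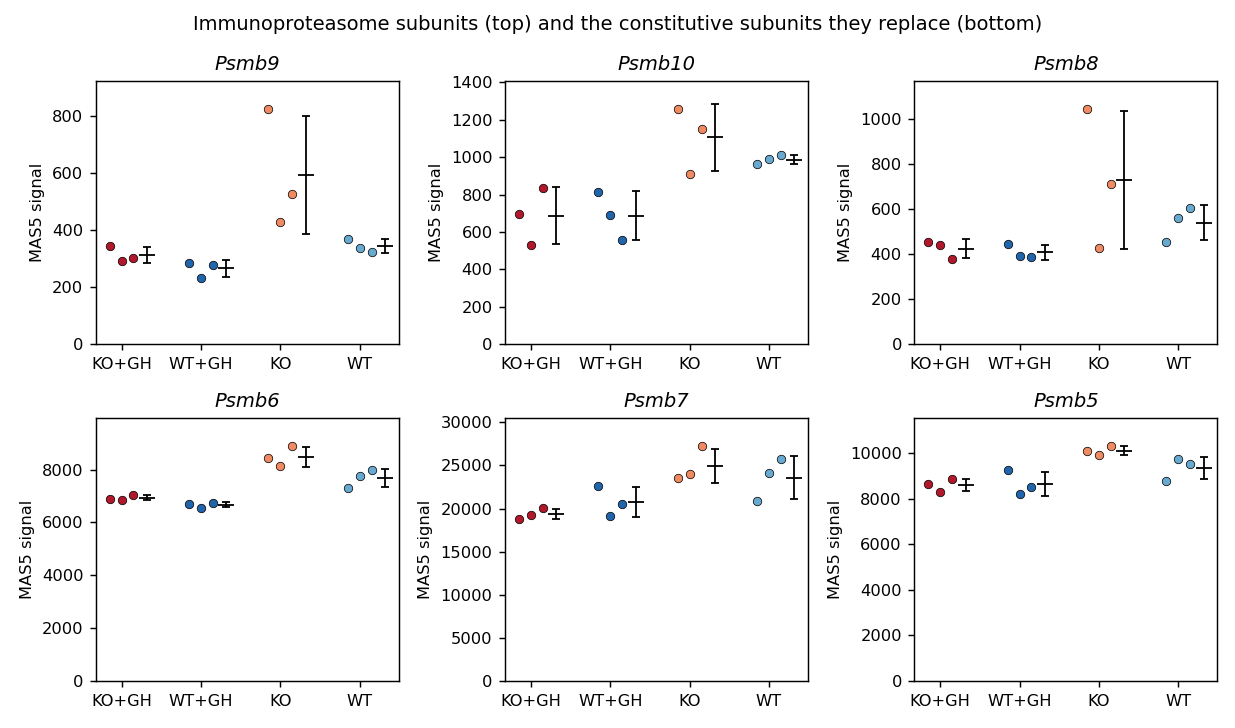
MAS5 signal on each array of the immunoproteasome genes Psmb9, Psmb10 and Psmb8 (upper row) and of the constitutive genes Psmb6, Psmb7 and Psmb5 that they replace (lower row). Points are arrays 1 to 3 from left to right, and the bar beside them is the mean ± SD (n = 3). The GH arrays of Psmb10 all lie below the arrays without GH, and KO array 1 is the highest array for each immunoproteasome gene.

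By genotype none of the 3 immunoproteasome genes passed in limma, and 1 (Psmb9, without GH) reached an unadjusted p under 0.05. Psmb9 had 0.70 ± 0.182 in KO relative to WT muscle (adjusted p = 0.0785) with no overlap between the 3 and 3 arrays, and 0.44 without KO array 1. Without KO array 2 its adjusted p was 0.0267. Psmb8 was 0.34 ± 0.223 (adjusted p = 0.626) and Psmb10 0.15 ± 0.163 (adjusted p = 0.798). With GH in both genotypes the 3 values lay between -0.01 and 0.22. The interaction values, from -0.48 to -0.16, did not pass, and these share the KO arrays with the GH and the genotype values above.

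Whether the immunoproteasome genes fell more than the subunits they replace was tested as a difference of log2 values within each array, with GH labels exchanged within genotype (exact permutation over 400 arrangements, 2-sided, smallest possible p = 0.005). The test was chosen after the data were seen, and its p-values were adjusted over the 3 pairs. Psmb9 fell by 0.34 more than Psmb6 with GH (0.53 in KO and 0.14 in WT muscle; exact p = 0.025, adjusted p = 0.0375). Psmb10 fell by 0.33 more than Psmb7 (0.32 in KO and 0.34 in WT muscle; exact p = 0.02, adjusted p = 0.0375). The Psmb8 to Psmb5 difference fell by 0.35 (exact p = 0.065, adjusted p = 0.065), which did not pass. The adjusted p of the first 2 pairs was 0.1275 without KO array 1, and most single arrays left out also ended the call, as given with the alternatives at the end.

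Some genes of class I antigen presentation, whose products work with the immunoproteasome, also fell with GH. Of 11 tested, 4 fell in KO (36.4%, background 15.4%) and 5 in WT muscle (45.5%, background 11.8%), and none rose (limma). H2-D1, a class I heavy chain, had a log2 fold change of -1.47 in KO and -1.01 in WT muscle, and H2-K1, another heavy chain, -1.24 and -0.74. B2m, the light chain, had signals of 9352, 9216 and 9442 in KO+GH muscle and 17560, 14950 and 26090 in KO muscle, with -1.02 in KO and -0.54 in WT muscle. Tap2, a subunit of the peptide transporter, had -0.41 and -0.50. By genotype 0 of 11 passed in limma, with 3 at an unadjusted p under 0.05 without GH and 0 with GH.

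Genes induced by interferon did not share a direction with GH. Of 13 tested, 2 rose and 2 fell with GH in KO muscle (15.4% each, beside backgrounds of 8.93% risen and 15.4% fallen). There Usp18 had -0.79 and Ifit3 -0.72, but Irf9 0.48 and Ifi35 0.30, and 7 of 13 values were lower. In WT muscle 4 rose (30.8%, background 7.33%), Ifit1 the most at 1.56, and none fell (background 11.8%), with 4 of 13 values lower. Without GH, 10 of 13 values were higher in KO relative to WT muscle, with a median of 0.29. By limma 4 had an unadjusted p under 0.05 in either direction. There 1 rose (7.69%, background 0.774%) and 0 fell (background 0.68%). The gene that rose was Irf9, a subunit of the interferon-activated factor, at 0.64 (limma, adjusted p = 0.0495). In KO+GH relative to WT+GH muscle 1 of 13 rose, Irf1 at 0.37 (limma, adjusted p = 0.029), and 2 fell. The backgrounds were 2.42% risen and 2.11% fallen. Values there ran down to -1.04, the median was -0.12, and 9 of 13 were lower. For the interaction 11 of 13 values were lower, with a median of -0.41, and 0 passed.

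Markers of other cells moved with GH as well. Of 8 macrophage markers, 6 fell and 1 rose in KO and 4 fell and 1 rose in WT muscle. The backgrounds, here and for the markers below, were 15.4% fallen and 8.93% risen in KO and 11.8% and 7.33% in WT muscle. The summed signal of the macrophage markers was 7205 to 7525 in KO+GH, 7402 to 7673 in WT+GH, 8962 to 12720 in KO and 9513 to 15870 in WT muscle. By genotype 0 of 8 passed in limma, and 0 reached an unadjusted p under 0.05. Of 6 endothelial markers 3 fell with GH in each genotype, and of 4 adipocyte markers tested 2 fell in each. Neutrophil markers went the other way. Of 4 tested, 3 rose with GH in KO and 2 in WT muscle, and 0 fell in either. The summed signal of the neutrophil markers was 1384 to 1528 in KO+GH and 2453 to 2521 in WT+GH muscle, against 187 to 222 in KO and 230.2 to 378 in WT muscle. Of the lymphocyte markers 2 of 8 with a probe set were bright enough to test and neither passed, and the summed signal was 428 to 562, 353 to 545, 474 to 609.7 and 448 to 747 in KO+GH, WT+GH, KO and WT muscle. The part of these cells in the immunoproteasome result was not tested.

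**Figure D3:**
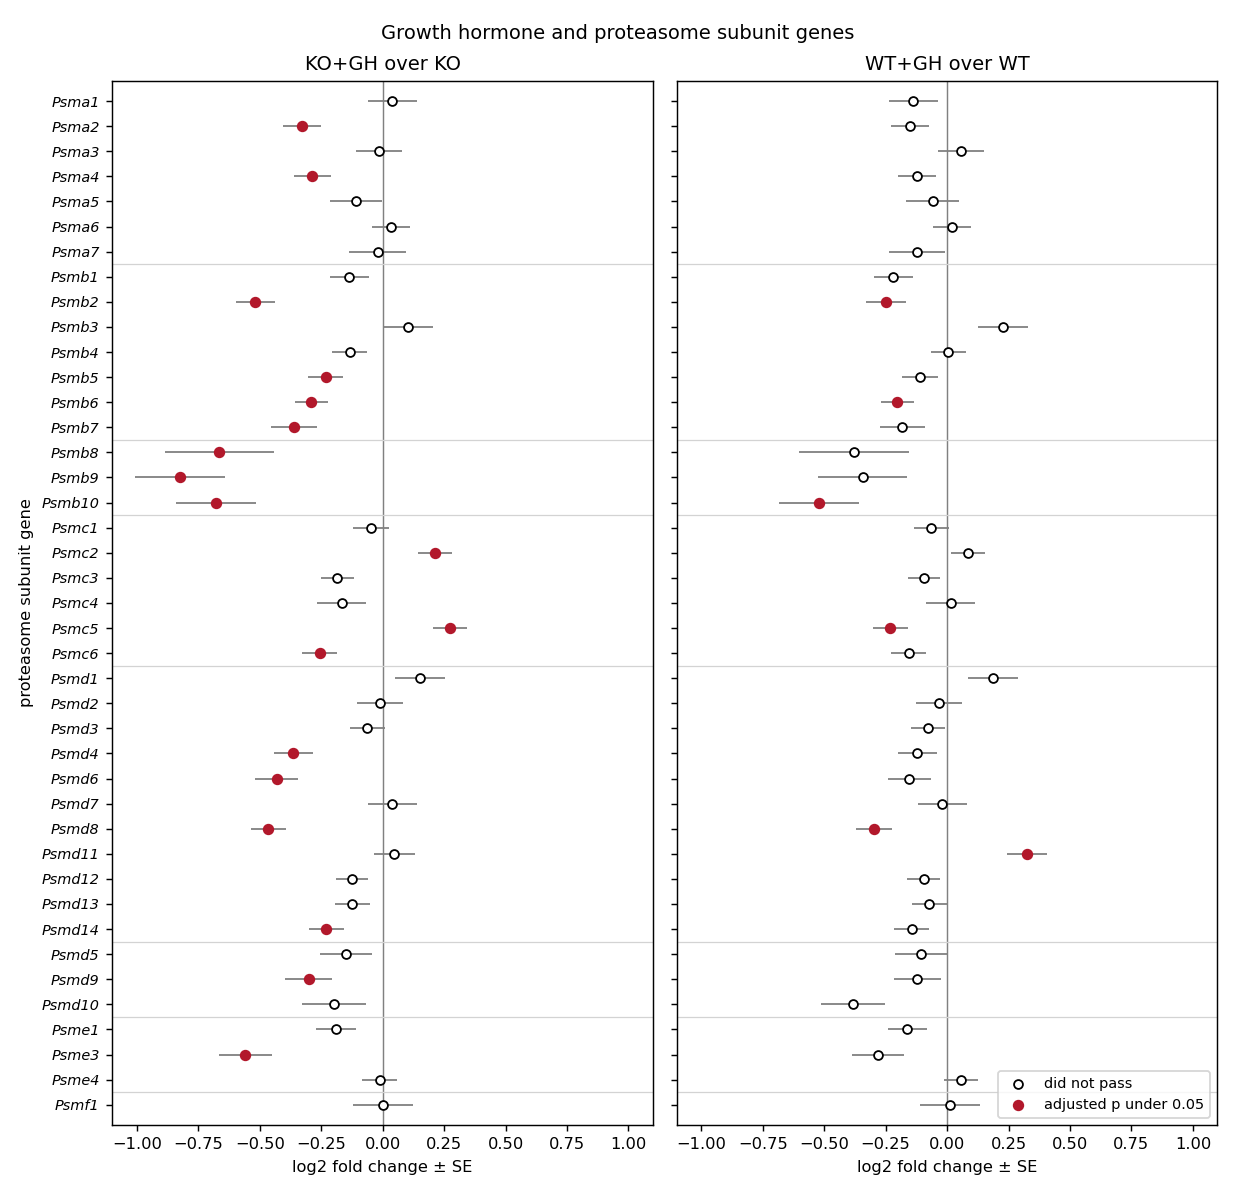
Log2 fold change with its standard error for each of the 41 members tested, KO+GH over KO muscle on the left and WT+GH over WT muscle on the right. Filled points passed an adjusted p of 0.05 (18 in KO and 6 in WT muscle), and horizontal lines part the alpha ring, beta ring, immunoproteasome, ATPase, non-ATPase, chaperone, activator and inhibitor genes.

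The 6 ATPases of the regulatory particle form the ring that unfolds substrates, and they did not move together. With GH in KO muscle 2 rose (Psmc5 and Psmc2), 1 fell (Psmc6) and 3 did not pass, while in WT muscle 1 fell (Psmc5). The shares were 33.3% risen and 16.7% fallen in KO (backgrounds 8.93% and 15.4%) and 16.7% fallen in WT muscle (background 11.8%). Psmc5 had signals of 6495, 6164 and 6178 in KO+GH muscle, 5925, 5858 and 6177 in WT+GH muscle, 5406, 4789.9 and 5391 in KO muscle, and 7194, 6794 and 7098 in WT muscle. KO arrays were the lowest and WT arrays the highest, with no overlap, and both GH groups lay in between with overlap. Psmc5 fell by 1.35-fold in KO relative to WT muscle (-0.44 ± 0.0707, adjusted p = 0.00455) and was 0.07 ± 0.0707 with GH in both (adjusted p = 0.701). With GH it rose 1.21-fold in KO (0.27 ± 0.0707, adjusted p = 0.0112) and fell 1.17-fold in WT muscle (-0.23 ± 0.0707, adjusted p = 0.0334).

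The interaction for Psmc5 was 0.50 ± 0.1 (95% interval 0.29 to 0.72, adjusted p = 0.0224). Since KO and WT arrays enter both the genotype and the GH values, these are not independent. Under median centring the interaction was 0.51 with an adjusted p of 0.0581, and the rise in KO was 0.10 and did not pass (adjusted p = 0.387). The interaction call was also lost without any 1 of KO+GH arrays 1, 2 and 3, WT+GH arrays 1 and 2, KO array 2 or WT array 3 (adjusted p = 0.052 to 0.0982), the rise in KO without any 1 of KO+GH array 1 or KO array 2 (adjusted p = 0.0576 to 0.0588) and the fall in WT without any 1 of KO+GH arrays 1, 2 and 3, WT+GH arrays 1, 2 and 3 or WT arrays 1 and 3 (adjusted p = 0.0502 to 0.101) or with only these 2 groups fitted (adjusted p = 0.0943). The KO against WT call held without each single array and was lost when only these 2 groups were fitted (adjusted p = 0.12).

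Psmc2 had signals of 8708, 8913 and 8898 in KO+GH muscle, 7769.6, 8399.6 and 8592 in WT+GH muscle, 7696, 7752 and 7404 in KO muscle, and 7404, 8123 and 7798 in WT muscle. The KO+GH arrays were above the KO arrays (0.21 ± 0.0687, adjusted p = 0.034), but its other bright probe set gave -0.19 and centring gave 0.04, so its direction is uncertain. The call was also lost with the mean of all probe sets (adjusted p = 0.324) and without any 1 of KO+GH arrays 1, 2 and 3 or KO arrays 1, 2 and 3 (adjusted p = 0.0615 to 0.105). Psmc6 had signals of 4392, 4233 and 4362 in KO+GH muscle, 4505, 4954 and 4523 in WT+GH muscle, 5466, 5217 and 4852 in KO muscle, and 5048, 5349 and 5187 in WT muscle. KO+GH arrays were below KO arrays (-0.26 ± 0.0715, adjusted p = 0.0174), whereas its 2 dimmer probe sets gave 0.30 and 0.56, and the call was lost without any 1 of KO+GH arrays 2 and 3 or KO array 1 (adjusted p = 0.0522 to 0.0729). Psmc4, the ATPase gene with the smallest GH difference in WT muscle, had signals of 2871, 2891 and 2843 in KO+GH muscle, 3189, 3116 and 3074 in WT+GH muscle, 3409, 3106 and 3159.7 in KO muscle, and 2542, 3439 and 3392 in WT muscle. Its KO+GH arrays lay below its KO arrays without passing (-0.17 ± 0.099, adjusted p = 0.242). Its second probe set, dimmer at a mean signal of 1111, went the other way, at 0.56 ± 0.193.

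Among the 11 non-ATPase subunits, 4 fell with GH in KO muscle (36.4%, background 15.4%), namely Psmd8, Psmd6, Psmd4 and Psmd14, and 7 did not pass. In WT muscle Psmd8 fell and Psmd11 rose (9.09% each, backgrounds 11.8% fallen and 7.33% risen). Psmd8, a subunit of the lid, had signals of 5383, 5415 and 5220.1 in KO+GH muscle, 7359.7, 6462 and 6852 in WT+GH muscle, 7598, 6879 and 7678 in KO muscle, and 8389, 8529 and 8489 in WT muscle. The KO+GH arrays were the lowest and the WT arrays the highest, and every array with GH was below every array without in the same genotype. Psmd8 fell by 1.38-fold with GH in KO (-0.46 ± 0.0721, adjusted p = 0.00033) and by 1.23-fold in WT muscle (-0.30 ± 0.0721, adjusted p = 0.00976). It also fell by 1.29-fold in KO+GH relative to WT+GH muscle (-0.36 ± 0.0721, adjusted p = 0.0066), and in KO relative to WT muscle the value was -0.20 ± 0.0721 (adjusted p = 0.26) with no overlap. These 3 calls of Psmd8 held under every alternative run.

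Psmd6, a further lid subunit, had signals of 9825, 9309 and 10731 in KO+GH muscle, 13244, 10588 and 12155 in WT+GH muscle, 13857, 13208 and 13189 in KO muscle, and 13323, 12635 and 13971 in WT muscle. KO+GH arrays were below the KO arrays (-0.43 ± 0.0875, adjusted p = 0.00247), while its second probe set gave 0.31. Psmd4, a receptor for ubiquitin, had signals of 7049.6, 6599 and 6649 in KO+GH muscle, 8563, 7055 and 7777 in WT+GH muscle, 9109.6, 8231 and 8815 in KO muscle, and 8273, 8803 and 8309.6 in WT muscle. The KO+GH arrays were the lowest (-0.36 ± 0.0797, adjusted p = 0.00412), and its second probe set gave -0.02. Both calls ended when all probe sets of a gene were averaged (adjusted p = 0.626 for Psmd6 and 0.371 for Psmd4).

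Psmd14, the enzyme that cuts ubiquitin chains off the substrate, had signals of 5542, 5348 and 5418 in KO+GH muscle, 6124, 5471 and 5544 in WT+GH muscle, 6612, 6209.8 and 6317 in KO muscle, and 6688, 6087 and 6172 in WT muscle. KO+GH arrays lay below KO arrays (-0.23 ± 0.0713, adjusted p = 0.0293), a call lost without any 1 of KO+GH arrays 1, 2 and 3 or KO array 1 (adjusted p = 0.0677 to 0.0995). Psmd11, a lid subunit, had signals of 12595, 12158 and 12648 in KO+GH muscle, 14947, 12364 and 12884 in WT+GH muscle, 11448, 11630 and 13157 in KO muscle, and 10893, 10402 and 10682 in WT muscle. WT+GH arrays were above WT arrays (0.32 ± 0.0827, adjusted p = 0.013), but centring left 0.14 (adjusted p = 0.231) and 3 other bright probe sets gave 0.07 to 0.27. The call was also lost without cross-hybridising probe sets (adjusted p = 0.465) and with only these 2 groups fitted (adjusted p = 0.0501). Psmd7, with the smallest GH difference in WT muscle of this class, had signals of 4067, 4372 and 4209.5 in KO+GH muscle, 4698, 4752 and 4536 in WT+GH muscle, 4597, 4334 and 3459.7 in KO muscle, and 4633, 4353 and 5235 in WT muscle, with overlap in both GH comparisons.

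**Figure D4:**
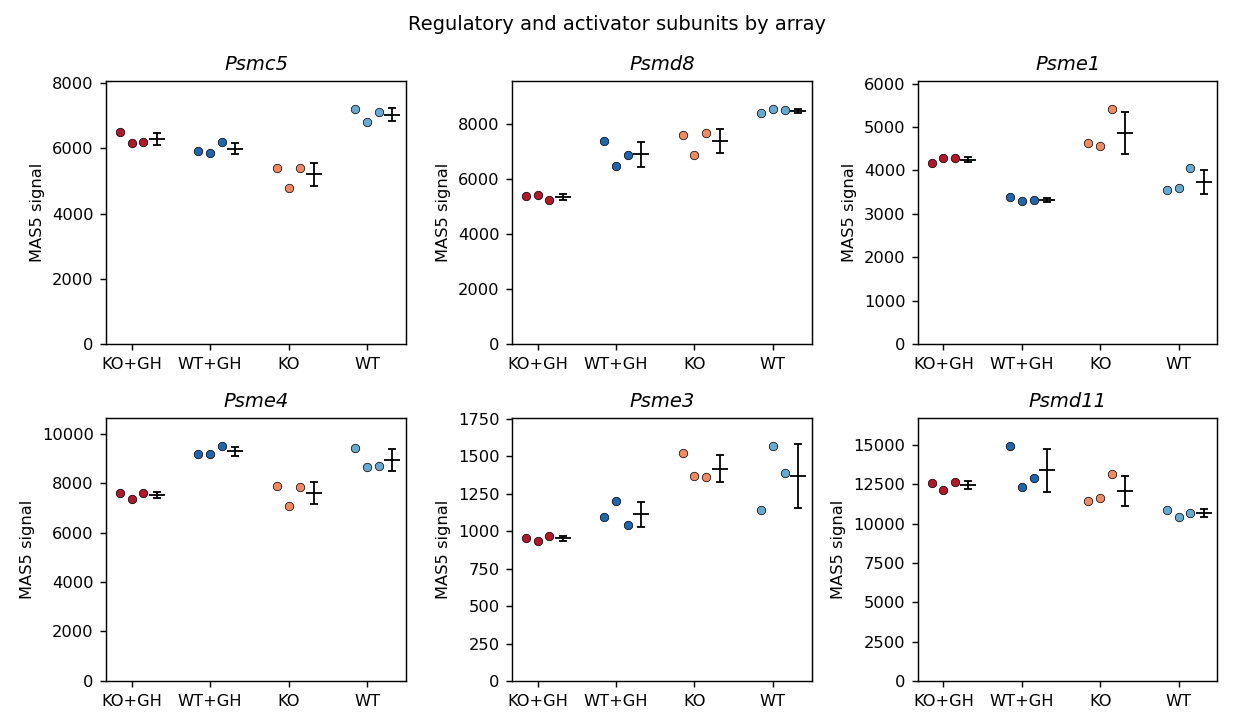
MAS5 signal on each array of the ATPase Psmc5, the lid subunits Psmd8 and Psmd11 and the activators Psme1, Psme4 and Psme3. Points are arrays 1 to 3 from left to right, and the bar beside them is the mean ± SD (n = 3). Psmc5 is lowest in KO and highest in WT muscle, Psmd8 is lowest in KO+GH muscle, and Psme1 is higher in KO+GH than in WT+GH and higher in KO than in WT muscle.

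The activator caps bind the core in place of the regulatory particle. Psme1 and Psme4 passed by genotype and not with GH, and Psme3 passed with GH in KO muscle and not by genotype. Psme1, a subunit of the interferon-inducible cap, had signals of 4175, 4281 and 4277 in KO+GH muscle, 3377, 3290 and 3319 in WT+GH muscle, 4625, 4551 and 5409 in KO muscle, and 3553, 3597 and 4045 in WT muscle. All KO+GH and KO arrays were above all WT+GH and WT arrays. Psme1 rose 1.27-fold in KO+GH relative to WT+GH (0.35 ± 0.0804, adjusted p = 0.0196) and 1.3-fold in KO relative to WT muscle (0.38 ± 0.0804, adjusted p = 0.0273). These 2 comparisons share no array. The call with GH was lost without any 1 of KO+GH arrays 1, 2 and 3 or WT+GH arrays 1, 2 and 3 (adjusted p = 0.052 to 0.0872), and the call without GH without any 1 of KO+GH arrays 1, 2 and 3, WT+GH array 3, KO array 3 or WT arrays 1 and 2 (adjusted p = 0.0508 to 0.0902), with array weights (adjusted p = 0.0529) and with only these 2 groups fitted (adjusted p = 0.313). Slow fibre markers also stood apart between KO and WT muscle, 6 of 8 having risen (75.0%, background 0.774%). With GH in WT muscle 6 of 8 also rose (75.0%, background 7.33%), with a median log2 fold change of 1.36. By limma 0 of 8 passed with GH in KO muscle and 0 in KO+GH relative to WT+GH muscle (1 and 2 at an unadjusted p under 0.05). The interaction passed for 1 of 8. Their summed signal was 38910 to 40090 in KO+GH, 33190 to 34830 in WT+GH, 41110 to 50930 in KO and 14380 to 35390 in WT muscle. Their part in the Psme1 and Psmc5 values and in the GH values of WT muscle was not tested.

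Psme4, the large single-chain nuclear activator, had signals of 7606, 7381 and 7599.8 in KO+GH muscle, 9174, 9179 and 9509 in WT+GH muscle, 7879.9, 7086 and 7833 in KO muscle, and 9443, 8653 and 8706 in WT muscle. KO+GH arrays were below WT+GH arrays and KO arrays below WT arrays. It fell by 1.23-fold in KO+GH relative to WT+GH muscle (-0.30 ± 0.07, adjusted p = 0.0202) and was -0.23 ± 0.07 in KO relative to WT muscle (adjusted p = 0.144). The other 5 probe sets were all lower in KO+GH muscle, with log2 values of -0.51 to -0.24, but the call was lost without any 1 of KO+GH arrays 1, 2 and 3 or WT+GH arrays 2 and 3 (adjusted p = 0.0548 to 0.103). It was also lost under centring (adjusted p = 0.0535), with the mean of all probe sets (adjusted p = 0.103) and without cross-hybridising probe sets (adjusted p = 0.0652).

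Psme3, the nuclear activator cap, had signals of 953, 937 and 969.8 in KO+GH muscle, 1093, 1205 and 1044 in WT+GH muscle, 1524, 1371 and 1361 in KO muscle, and 1143, 1570.4 and 1390.2 in WT muscle. It was lowest in KO+GH muscle and fell by 1.47-fold relative to KO muscle (-0.56 ± 0.107, adjusted p = 0.00169), with -0.28 ± 0.107 in WT muscle (adjusted p = 0.0816). Its second probe set gave -0.04 in KO, and the mean of its probe sets did not pass (adjusted p = 0.0771).

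Of the 3 chaperones that assemble the base of the regulatory particle, Psmd9 fell with GH in KO muscle (33.3%, background 15.4%). Psmd9 had signals of 771, 738 and 828 in KO+GH muscle, 881, 878 and 734 in WT+GH muscle, 957, 923 and 1015 in KO muscle, and 905, 878 and 927 in WT muscle. KO+GH arrays were below KO arrays (-0.30 ± 0.0951, adjusted p = 0.0319), its 2 dimmer probe sets gave -0.10 and 0.68, and the call was lost without any 1 of KO+GH arrays 1 and 2 or KO arrays 1 and 3 (adjusted p = 0.0644 to 0.122). Psmd10 had signals of 444, 519 and 424 in KO+GH muscle, 446, 513 and 387 in WT+GH muscle, 573, 513 and 511 in KO muscle, and 541, 551 and 682 in WT muscle, and its WT+GH arrays were below its WT arrays without passing (-0.38 ± 0.13, adjusted p = 0.0523). Psmd5 had signals of 876, 898 and 709 in KO+GH muscle, 848, 841 and 736 in WT+GH muscle, 843, 945 and 965 in KO muscle, and 914, 879 and 822 in WT muscle, with -0.15 ± 0.107 in KO and -0.11 ± 0.107 in WT muscle. The inhibitor gene Psmf1 had signals of 648, 707 and 635 in KO+GH muscle, 646, 612 and 734 in WT+GH muscle, 563, 647 and 796 in KO muscle, and 692, 616 and 663 in WT muscle. Its groups overlapped in every comparison, and its 4 log2 values lay between 0.00 and 0.01.

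**Figure D5:**
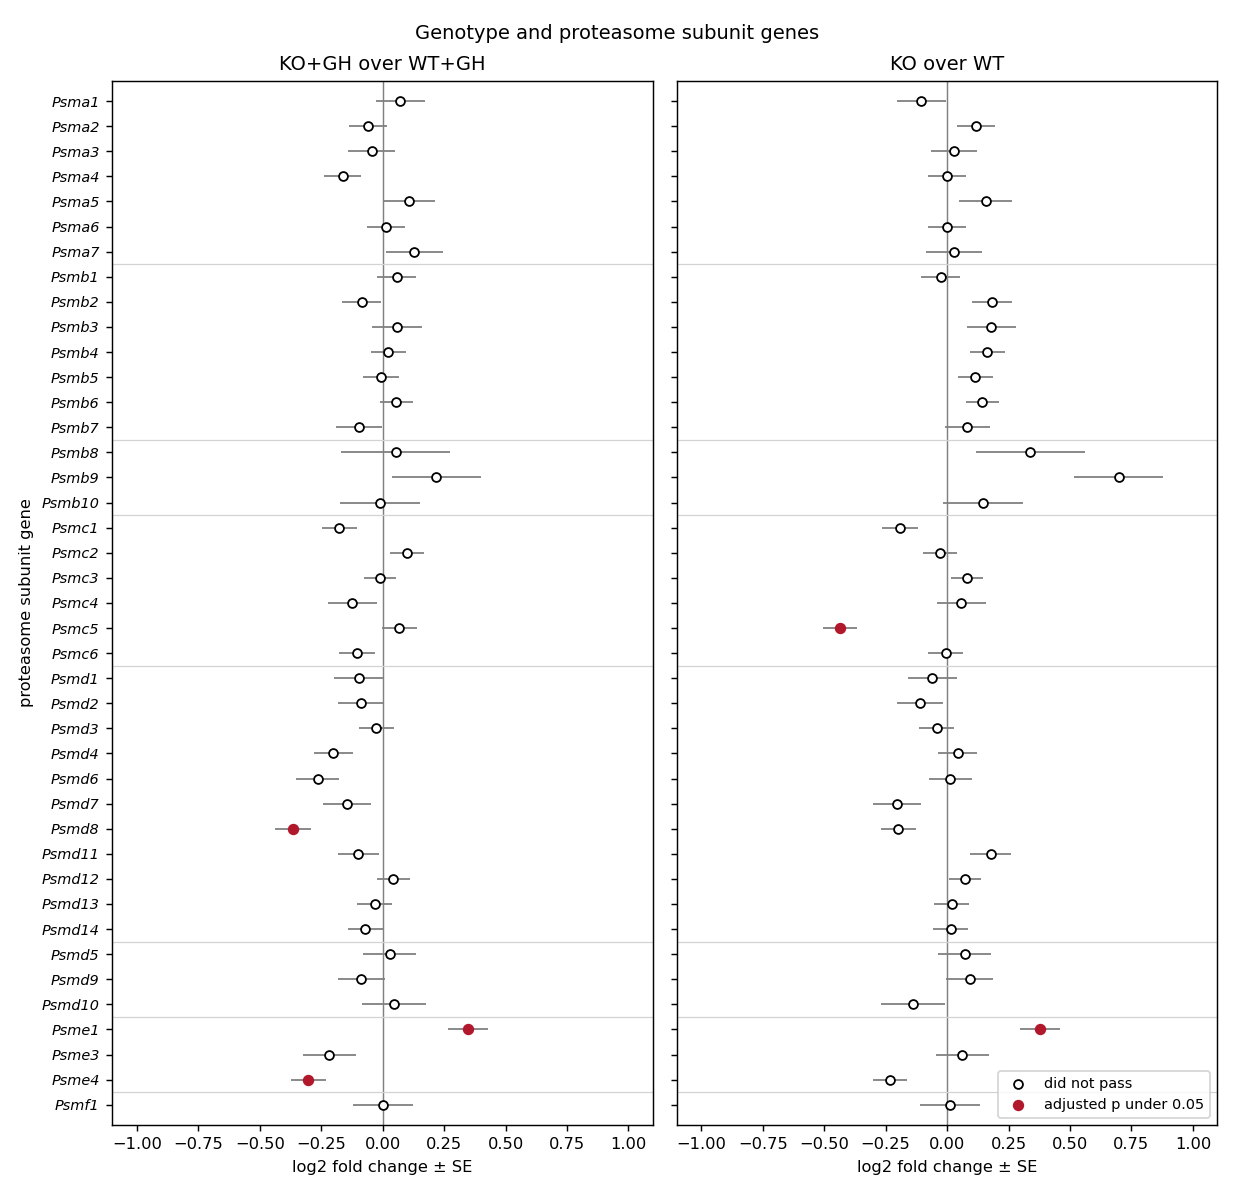
Log2 fold change with its standard error for the 41 members tested, KO+GH over WT+GH muscle on the left and KO over WT muscle on the right. Filled points passed an adjusted p of 0.05, which are Psmd8, Psme1 and Psme4 on the left and Psmc5 and Psme1 on the right, with lines between classes.

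The 20 members that passed in no comparison were Psma1, Psma3, Psma5, Psma6, Psma7, Psmb1, Psmb3, Psmb4, Psmc1, Psmc3, Psmc4, Psmd1, Psmd2, Psmd3, Psmd5, Psmd7, Psmd10, Psmd12, Psmd13 and Psmf1. They include alpha and beta ring genes, ATPases and the large scaffold subunits Psmd1 and Psmd2. On the brightest probe set of each gene, their largest log2 difference in a 2-group comparison was 0.38, that of Psmd10 in WT muscle, which was lower with GH. Other probe sets were not used for these calls, and some differed more with GH. The next brightest of Psma7 gave -0.28 in KO and -0.32 in WT muscle. In KO muscle that of Psma5 gave -0.28 and that of Psmb4 1.295.

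Genes that serve the proteasome without being part of it were read from lists. Of 5 assembly chaperones of the core tested, Psmg3 fell with GH in KO muscle (-0.45 ± 0.108, adjusted p = 0.00722). Of 13 proteasome-associated genes, 3 fell with GH in KO muscle (23.1%, background 15.4%) and 2 in WT muscle (15.4%, background 11.8%). Akirin2, which brings proteasomes into the nucleus, fell in both, with -0.57 ± 0.0754 in KO (adjusted p = 8.8e-05) and -0.36 ± 0.0754 in WT muscle (adjusted p = 0.00407), and its signals were 2535, 2571 and 2582 in KO+GH, 2388, 2662 and 2672 in WT+GH, 3918, 4014 and 3526 in KO, and 3244, 3394 and 3279 in WT muscle. No array with GH reached an array without. The proteasome-binding protein Ecpas had -0.31 and the ubiquitin shuttle Rad23b -0.28 in KO muscle, and Zfand5, a proteasome activator, had -0.30 in KO+GH relative to WT+GH muscle.

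The list around NRF1, the transcription factor that drives proteasome genes when proteasomes are short, had 4 genes that rose and 2 that fell of 9 tested with GH in KO muscle. That is 44.4% risen and 22.2% fallen, beside 8.93% and 15.4% of all genes. Nfe2l1, which encodes NRF1, had -0.35 ± 0.0718 (adjusted p = 0.00293), with signals of 5920, 5965 and 5912 in KO+GH against 7116, 7719 and 7814 in KO muscle. Its dimer partners Mafk and Mafg had 0.96 and 0.52. Nfe2l2, which encodes the related NRF2, had 0.37 with GH in KO muscle and 0.82 in KO+GH relative to WT+GH muscle (adjusted p = 5.42e-05). In WT muscle 1 gene of this list passed with GH, Maff, at 1.34 (11.1% risen, background 7.33%).

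Upstream in the pathway, Uba6, an enzyme that activates ubiquitin, fell with GH in both genotypes (-0.65 in KO and -0.35 in WT muscle). Of 10 muscle ubiquitin ligases, 2 rose and 4 fell with GH in KO muscle (backgrounds 8.93% risen and 15.4% fallen). In WT muscle 2 rose and 1 fell (backgrounds 7.33% risen and 11.8% fallen), so the fallen share there was not above that of all genes. The wasting-linked ligases went apart. Trim63 had 1.02 ± 0.137 in KO and 0.66 ± 0.137 in WT muscle, both past the threshold (adjusted p = 0.000104 and 0.00406), and Fbxo32 had -0.84 ± 0.112 in KO muscle (adjusted p = 9.09e-05), with an interaction of -0.99 ± 0.159 (adjusted p = 0.00445). Fast fibre markers fell with GH in KO muscle in 8 of 10 cases (80.0%, background 15.4%), and their summed signal was 404500 to 425800 in KO+GH against 491000 to 643000 in KO muscle. Their part in the proteasome values was not tested.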

How the data were processed

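The deposited table holds MAS5 signal, a linear intensity that the authors computed per probe set, for 45101 probe sets on 12 one-colour Affymetrix arrays; MAS5 is named in the submitters' processing notes, with no version. The trimmed mean was 500 on every array, so the authors' scaling to 1 target was kept. Detection calls and scanner files were not used here, and the 3 arrays per group limit the precision. Every value column was used, leaving 0 unused.

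Values were taken as log2(signal + 25). Left out were 64 control probe sets, 932 with several symbols and 9160 with none. Of the other 34945, the brightest per gene was kept, and genes whose mean passed the 40th percentile over all non-control probe sets (log2 6.253) were tested, 12654 in all. Current symbols were looked up in a RefSeq gene table and 162 symbols kept as annotated.

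Differences were tested with limma 3.58.1 in R 4.3.3 (statmod 1.5.0), with lmFit on 4 group means over 12 arrays, 8 residual degrees of freedom, eBayes with trend and robust, and 2-sided p-values adjusted by Benjamini-Hochberg over all genes tested at 0.05. "Rose" and "fell" mean past it. A value after ± is a standard error for a log2 fold change. Folds are on the log2(signal + 25) scale and understate those of dim genes. The fit was tested on simulated data. Members called in any comparison, the immunoproteasome genes and the extremes of each class for GH in WT muscle are given array by array, and up to 4 genes of other lists by smallest p. Members and lists were chosen with earlier results of these data known. Promoters are RefSeq sequences on GRCm38.p6. Alternatives covered the pseudocount, scaling, filter, probe set choice, array weights, groups fitted and each array left out.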

Additional observations from a re-analysis of the deposited data

Results flagged for a closer look

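The GH response of Psmc5 differed between the genotypes by the test of the interaction, with a log2 difference of 0.50 ± 0.1 (limma, adjusted p = 0.0224). Psmc5, an ATPase of the regulatory particle, rose with GH in KO muscle and fell with GH in WT muscle. The call was lost under median centring and without each of 7 single arrays, as given with its signals above.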

How the results depend on the processing

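No paired analysis was possible because the labels give no replicate number that groups share. Median centring gave 1 member lower in KO+GH relative to WT+GH muscle (2.44%, all genes 1.63%) and 0 for the interaction. With GH in WT it gave 0 higher (all genes 3.87%) and 25 lower (61.0%, all genes 31.1%). With GH in KO it gave 0 higher (all genes 5.08%) and 26 lower (63.4%, all genes 33.0%). The mean log2 GH difference was then -0.34 (core), -0.28 (regulatory) in KO and -0.27, -0.24 and -0.60 (immunoproteasome) in WT muscle, against -0.16, -0.10, -0.09, -0.06 and -0.41 as deposited. Quantile normalization gave -0.12 (core) and -0.0720 (regulatory) with GH in KO, where the median of all genes was -0.0921. Averaging all probe sets of a gene, dim ones included, gave core means of -0.0600 with GH in KO, 0.0184 with GH in WT and -0.0317 for KO+GH relative to WT+GH muscle. The regulatory means were -0.000246 and 0.00316 with GH in KO and WT. Called were 1 member lower in KO+GH relative to WT+GH muscle (2.44%, all genes 2.28%) and 3 higher with GH in WT (7.32%, all genes 8.39%). Averaging turned Psmc6 to 0.20 (adjusted p = 0.214), Psmd4 to 0.21 (adjusted p = 0.371) and Psmd9 to 0.0925 (adjusted p = 0.649) with GH in KO. Leaving out cross-hybridising probe sets turned Psmc2 to -0.19 (adjusted p = 0.0629), with a regulatory mean of -0.0874 with GH in WT. It gave 1 member lower in KO+GH relative to WT+GH (2.44%, all genes 2.14%). With GH it gave 0 higher in WT (all genes 7.17%) and 1 higher in KO (2.44%, all genes 8.75%). No filter on low values gave 3 lower with GH in WT (6.98%, all genes 7.21%). Array weights gave 0 higher in KO relative to WT (all genes 1.19%) and 10 lower with GH in WT (24.4%, all genes 14.9%). Fitting only the 2 groups compared gave 0 higher and 0 lower in KO relative to WT (all genes 0.182% and 0.126%). With GH in WT it gave 0 higher (all genes 5.68%) and 2 lower (4.88%, all genes 8.53%).

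With each array left out, members called ranged from 0 to 2 higher and 1 to 1 lower in KO relative to WT, 0 to 1 higher and 1 to 2 lower in KO+GH relative to WT+GH, 1 to 1 higher and 1 to 8 lower with GH in WT, 0 to 2 higher and 10 to 18 lower with GH in KO, and 0 to 1 higher and 0 to 0 lower for the interaction. With GH in KO, Psma2, Psmb2, Psmb6, Psmb7, Psmb9, Psmb10 and Psmd8 passed under all 21 alternatives run. The Psmb9 to Psmb6 difference passed in 3 and the Psmb10 to Psmb7 difference in 5 of 12 runs without an array (adjusted p = 0.015 to 0.1275 over both), and neither with a pseudocount of 100 (adjusted p = 0.0675).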
